A study of Mus musculus with 8 samples.

Results

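The genes described here are 10 genes of the antioxidant defence of the cell, Gclc, Gclm, Gpx1, Cat, Sod2, Txnrd1, Srxn1, Nqo1, Hmox1 and Nnt. They were taken by name from 63329 gene names on the arrays and followed in Lin- bone marrow (BM) cells, in hepatocytes that arose from such cells in the liver of transplanted mice, and in primary hepatocytes. The members were picked for what they do, with earlier results of these data known. Each was measured on 8 single-colour Agilent arrays, 2 in each of 4 groups, every array being made from the pooled cells of several mice. The donors of the marrow were female eGFP mice of the strain C57Bl6/J-Tg(UBCGFP)30Scha/J, in which the human ubiquitin C promoter drives the green fluorescent protein in nearly all cells. Lin- BM cells are the marrow cells left after magnetic removal of cells with mature blood lineage markers. The recipients were young adult male hemophilia A mice with the allele F8tm1Kaz on a mixed background, which lack working factor VIII, and their livers were injured with acetaminophen before the cells were given into the tail vein. All recipients share that allele and that injury. After 1 or 5 months the livers were perfused with collagenase and eGFP+ hepatocytes were sorted by FACS, which selects cells that carry the donor transgene. The sort does not separate a converted donor cell from a hybrid of a donor and a recipient cell, so recipient genomes may be present among the BM-derived hepatocytes. The strain and age of the mice that gave the primary hepatocytes are not stated in the sources used here.

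Glutathione, a tripeptide built by the glutamate-cysteine ligase of Gclc and Gclm, and the thioredoxin system of Txnrd1 remove peroxides with electrons from NADPH. Gpx1 reduces peroxides with glutathione, and Srxn1 restores the peroxiredoxins of the thioredoxin system. Sod2 and Cat act on superoxide and hydrogen peroxide directly. Many of these genes are targets of the transcription factor NRF2, which KEAP1 keeps low until electrophiles or oxidants release it, and the liver is known for high levels of the whole system since it handles heme, fatty acids and drugs such as acetaminophen. Nnt encodes the nicotinamide nucleotide transhydrogenase of the inner mitochondrial membrane, which uses the proton gradient to make NADPH in the matrix. As background, C57BL/6J mice are known to carry a deletion within Nnt, and the donor strain of the marrow is on that background.

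Nnt was represented by 5 probes, each of 60 bases, and none of them lies on both designs. The first 30 bases of each are shown because the results on Nnt differ with the probe and with the slide. On the slide of the Lin- BM cells and the 1-month hepatocytes there were 2 probes, named here by their brightness.
Nnt brightest probe, Lin- and 1-month slide: ccaaatctgcagcaggttatcagccttcac
Nnt second probe, Lin- and 1-month slide: acaatccgatcttctacaaacctaacacag
On the slide of the primary and 5-month hepatocytes there were 3 probes, all placed by the array files on the minus strand of mouse chromosome 13 in build mm9, at chr13:120124335-120124394, chr13:120123318-120123377 and chr13:120142585-120142644 in the order given.
Nnt brightest probe, primary and 5-month slide: gtattaagtgcgcttgaatggaatgcaacc
Nnt second probe, primary and 5-month slide: gagacatttttgggtttcagaactggcaga
Nnt dimmest probe, primary and 5-month slide: ggagggaccaacattgttctgatgtggagg
The first and the second of these 3 lie close together, while the dimmest lies farther along the chromosome. Which exons or untranslated regions the 5 probes cover was not determined. The RefSeq gene itself spans chr13:119335527-119409257 in GRCm38, a later build whose coordinates cannot be set beside those of mm9.

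A promoter is shown for Srxn1, the member with the most copies of the motifs searched. Its gene lies at chr2:152105524-152111376 in GRCm38 on the plus strand, and the 250 bases before its start, at chr2:152105274-152105523, read as follows in RefSeq, with 2 copies of TGAGTCA in capitals, the form of the NRF2 element that is also an AP-1 element.
Srxn1 promoter: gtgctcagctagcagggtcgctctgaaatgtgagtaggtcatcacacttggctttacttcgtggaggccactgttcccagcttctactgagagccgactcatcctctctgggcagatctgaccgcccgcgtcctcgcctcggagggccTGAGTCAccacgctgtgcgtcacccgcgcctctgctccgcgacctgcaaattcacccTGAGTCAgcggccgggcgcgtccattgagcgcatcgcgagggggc
Those copies begin at -102 and -45, counted from the gene start. Promoter windows of 300 bases were at hand for 7 of the 10 members, and Nnt, Gclc and Hmox1 were without one. The core of the antioxidant response element, TGACNNNGC on either strand, was found in Gclm at -134, in Txnrd1 at -92 (in 1 of its windows) and in Srxn1 at 28 from the start. Counted by gene in the same way, 14.0% of all 27025 genes had it in some window, and counted by window 12.4% of all 32851. TGAGTCA was found in Srxn1 and in no other member, against 5.95% of all genes and 5.2% of all windows. A copy of these letters is a description of the sequence and not a bound site.

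Signals are given on the log2 scale, as log2 of the background-subtracted intensity minus the 75th percentile of the array, so that 0 is the upper quartile of the array and a step of 1 is a doubling. Of the spots, 47.7% to 58.6% were well above background and 0 were saturated, and the upper quartile of the intensity was lowest at 1 month (75 and 88.7, against 103 to 192 on the other arrays). Lin- BM cells and 1-month hepatocytes share a slide of 1 design, primary and 5-month hepatocytes a slide of another, so slide, design and group cannot be told apart in comparisons across slides. Of 7 measured hepatocyte markers, Alb, Apoa1, Cps1 and Ttr were not above the background limit in the marrow cells and 3 (Tat, Trf and Hnf4a) were, and all measured hepatocyte markers were above it in the other 3 groups. In RNA of bulk cells, fewer cells of a type and less RNA per cell cannot be told apart. A call in limma asked for 2 things, an adjusted p below 0.05 and a change of more than 0.6 log2 units. With 2 arrays a group, the exact permutation test (two-sided) could not have reached a p below 0.33.

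At 1 month, 6 of the 10 genes were higher in BM-derived hepatocytes than in Lin- BM cells, and 0 were lower. These were Cat, Srxn1, Gclc, Sod2, Gpx1 and Txnrd1, with fold sizes from 2.85 (Txnrd1) to 47.6 (Cat). Among all 28538 genes tested on that slide 28.8% were called higher and 26.5% lower, 55.3% in all. The median log2 change of the 10 genes was 2.01 and that of all genes 0.07; another background correction (normexp) moved the latter to 0.37 and testing without the filter on dim probes to 0.75. Gclm, Nqo1, Hmox1 and Nnt were not called. Along with the 6 genes the summed level of the measured hepatocyte markers went from 1.52 to 1.56 in Lin- BM cells to 1880 to 2314 at 1 month, on the linear scale relative to the upper quartile, and that of the 8 marrow progenitor markers from 481 to 505 down to 3.54 to 6.31. Markers of other liver cells were higher as well, with the 6 of sinusoidal endothelium going from 1.68 and 2.30 to 55.3 and 60.6 (5 called higher, 1 lower) and the 8 of Kupffer cells from 1.44 and 4.63 to 11.1 and 42.3 (5 called higher). Of 5 stellate cell markers tested 4 were called higher and 1 lower, while their sum was 13.99 and 9.2 in Lin- BM cells and 11.1 and 15.3 at 1 month. The part of these cells in the changes of the 10 genes was not tested.

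**Figure D1:**
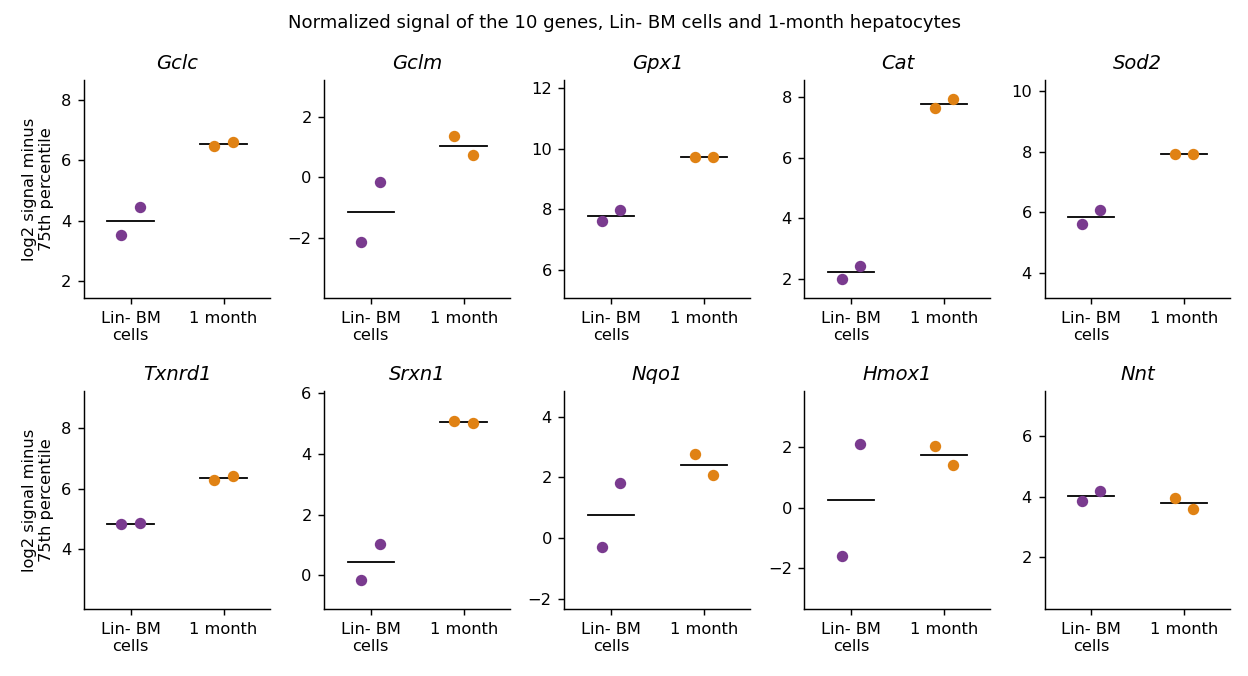
Normalized signal of the 10 genes on the slide of Lin- BM cells and 1-month hepatocytes, as log2 intensity minus the 75th percentile of the array, for the brightest probe of each gene. Points are arrays and lines are group means of 2 arrays, every panel spans the same range of log2 units, and the Lin- BM cell arrays of Hmox1, Nqo1 and Gclm lie far apart while the groups of Nnt overlap.

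Of the glutathione genes, Gclc encodes the catalytic subunit of glutamate-cysteine ligase, the rate-limiting enzyme of glutathione synthesis. Its log2 signal was 3.52 and 4.44 on the Lin- BM cell arrays and 6.48 and 6.59 at 1 month. The groups did not overlap, and the 1-month arrays lay closer together than the Lin- BM cell arrays did. The log2 change was 2.55 (SE 0.39, n = 2 per group), a 5.87-fold rise, at an adjusted p of 0.00582 in limma. Gclm encodes the modifier subunit, which makes the ligase more efficient. Its log2 signal was -2.13 and -0.15 in Lin- BM cells and 1.35 and 0.74 at 1 month. These groups did not overlap either, but the Lin- BM cell arrays differed by about as much as the groups. The log2 change of Gclm was 2.18 (SE 0.71) with an adjusted p of 0.0503 in limma, just past the limit, and without Lin- BM cell replicate 4 it was 3.17 and called, without replicate 3 it was 1.20 and not called. With normexp it was 1.42 and not called. A fit of all 8 arrays on the probes of identical sequence, chosen after seeing the data, gave 2.21 at an adjusted p of 0.0155 in limma.

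Cat, Sod2 and Gpx1, which act on superoxide and hydrogen peroxide, rose. Catalase, encoded by Cat, splits hydrogen peroxide in peroxisomes, and its log2 signal was 2.01 and 2.41 in Lin- BM cells and 7.64 and 7.92 at 1 month. The gap between the groups was many times the spread within them, and the log2 change of 5.57 (SE 0.30, n = 2 per group, adjusted p of 0.000346 in limma) was larger than that of the other 9 genes. Sod2 encodes the manganese superoxide dismutase of the mitochondrial matrix, with log2 signals of 5.60 and 6.07 in Lin- BM cells and 7.93 and 7.91 at 1 month. Gpx1 encodes the selenium-containing glutathione peroxidase of cytosol and mitochondria, with 7.61 and 7.99 in Lin- BM cells and 9.75 and 9.73 at 1 month. For both genes the arrays of a group lay close together and the groups did not overlap. Sod2 rose by 2.09 on the log2 scale (SE 0.29, adjusted p of 0.0046) and Gpx1 by 1.94 (SE 0.28, adjusted p of 0.00501), as tested with limma. With quantile normalization the change of Gpx1 was 1.23, still called.

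In the thioredoxin system, Srxn1 encodes sulfiredoxin, which brings overoxidized peroxiredoxins back to work. Its brightest probe gave log2 signals of -0.14 and 1.04 in Lin- BM cells and 5.09 and 5.02 at 1 month. The groups lay far apart, and the log2 change was 4.61 (SE 0.46, adjusted p of 0.00174 in limma), a 24.4-fold rise. The other probes of Srxn1 on that slide gave log2 changes of 3.17 and 4.84, and all 3 were called, so the direction did not depend on the probe while the size did. The brightest probe gave 3.91 with normexp, 4.01 without Lin- BM cell replicate 3 and 5.201 without replicate 4, all called. Txnrd1 encodes the cytosolic thioredoxin reductase, a selenoprotein that passes electrons from NADPH to thioredoxin. Its log2 signals were 4.82 and 4.86 in Lin- BM cells and 6.29 and 6.41 at 1 month. The arrays of each group were nearly alike, and the rise of 1.51 (SE 0.26, adjusted p of 0.0078 in limma) was the smallest among the 6 called genes.

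Nqo1 encodes a quinone reductase that keeps quinones from redox cycling, and Hmox1 the inducible heme oxygenase, which opens the heme ring. The log2 signal of Nqo1 was -0.28 and 1.81 in Lin- BM cells and 2.78 and 2.07 at 1 month, and that of Hmox1 was -1.60 and 2.09 against 2.05 and 1.41. Nqo1 did not overlap between the groups and Hmox1 did, since Lin- BM cell replicate 4 was as high in Hmox1 as the 1-month arrays. The log2 changes were 1.66 for Nqo1 (SE 0.75, adjusted p of 0.117 in limma) and 1.49 for Hmox1 (SE 1.22, adjusted p of 0.34). Which Lin- BM cell array was kept decided both values. Without replicate 4 the log2 change was 2.71 for Nqo1 and 3.33 for Hmox1, both called, and without replicate 3 it was 0.61 and -0.35, both not called. Replicate 4 had higher Kupffer cell markers (summed level 4.63, against 1.44 in replicate 3, with 6 and 4 of 8 markers well above background and Clec4f and Vsig4 not so on either array) and lower neutrophil markers (590 against 1168), and their part in these values was not tested. In the fit of all 8 arrays on shared probes, added after seeing the data, Nqo1 was called (log2 change 1.69, adjusted p of 0.0468 in limma) and Hmox1 was not (1.52, adjusted p of 0.235).

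Nnt was not called in this comparison. Its brightest probe, which begins with ccaaatctgcagc, gave log2 signals of 3.87 and 4.18 in Lin- BM cells and 3.97 and 3.59 at 1 month. The groups overlapped, and the log2 change was -0.24 (SE 0.30, n = 2 per group, 95% interval -1.005 to 0.53, adjusted p of 0.519 in limma). The second probe gave 0.20 and 0.31 in Lin- BM cells and 0.30 and 0.09 at 1 month, a log2 change of -0.06. With normexp the brightest probe gave -0.54 at an adjusted p of 0.0317 in limma, short of the 0.6 that a call asked for. All 4 arrays passed the background limit with both probes, so signal was measured in the marrow cells as well as in the hepatocytes. Whether it came from an intact transcript was not tested. Of the 28538 genes tested, 56.7% had a higher change than Nnt.

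**Figure D2:**
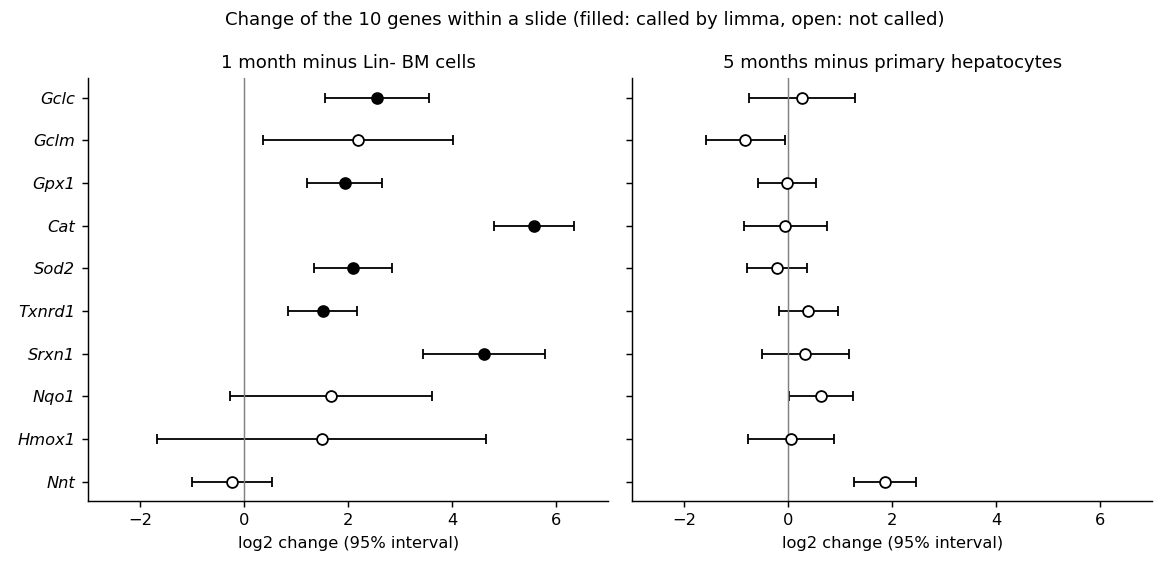
Log2 change of each of the 10 genes within a slide, 1 month minus Lin- BM cells on the left and 5 months minus primary hepatocytes on the right. Points are limma estimates from 2 arrays per group, bars are 95% intervals, filled points were called, and the left panel holds 6 filled points while the right panel holds none, with Nnt farthest from 0 there.

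Other genes of the same pathways were counted in the same comparison, by lists chosen with earlier results of these data known. Over all genes tested 28.8% were called higher and 26.5% lower. Of 12 genes of glutathione synthesis and recycling 7 were higher and none was lower, and their median change was 1.70 on the log2 scale against 0.07 for all genes. Among them were Oplah (6.88), which returns 5-oxoproline to glutamate, Chac1 (3.98) and Chac2 (2.96), which break glutathione down, and Gss (1.86), the glutathione synthetase. Of 6 glutathione peroxidase genes 1 was higher, Gpx1, and 1 lower, Gpx2 (-2.82), the gastrointestinal form. The median of that list was -0.05, with Gpx1 as the 1 member called higher. Gpx4 and Gpx7 had values of 0.93 and 0.65 and Gpx3 and Gpx8 of -0.76 and -1.30, none of them called.

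All 4 measured genes of the list of superoxide dismutases and catalase were higher, with a median of 2.77. Beside Sod2 and Cat these were Sod1 (1.68), the cytosolic enzyme, and Ccs (3.45), the chaperone that loads it with copper. Of 20 genes of thioredoxins and peroxiredoxins 10 were higher and 1 lower, with a median of 1.17. The peroxiredoxins Prdx1 (3.14) and Prdx5 (2.05) and the methionine sulfoxide reductases Msrb1 (3.48) and Msra (2.94) stood among them. Sesn1 (-1.32), a sestrin, was the one called lower. Of 8 genes of selenoprotein synthesis and transport, which Gpx1 and Txnrd1 depend on, 4 were higher and 0 lower, led by Sephs2 (3.64), which makes selenophosphate, and Selenop (3.58), the plasma selenium carrier that the liver secretes. The counts of the selenoprotein list and of thioredoxins and peroxiredoxins changed with single arrays left out. The share of all genes called fell in those fits as well.

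The genes of NADPH supply moved in both directions, as did all genes tested (28.8% called higher and 26.5% lower), while most NRF2 targets rose. Nnt stood near the middle of 16 genes of NADPH supply, of which 6 were higher and 3 lower, with a median of 0.21. Cytosolic enzymes were found at the top, with malic enzyme Me1 at 9.80 (1 of its 2 Lin- BM cell arrays well above background), Aldh1l1 of the folate cycle at 8.42 and isocitrate dehydrogenase Idh1 at 5.09. The 3 called lower were Mthfd1l (-6.90), a mitochondrial folate enzyme, Mthfd2 (at least 16.7-fold lower, as it was not well above background at 1 month) and G6pdx (-2.63), which opens the pentose phosphate pathway. H6pd, its counterpart in the endoplasmic reticulum, was higher (4.02). Of 24 NRF2 targets 18 were higher and 1, G6pdx, lower, with a median of 2.91. The largest values among them belong to genes that hepatocytes are known to express highly: Gsta3 at 12.72, Me1, and Aox1 and Abcc2, at least 1260-fold and at least 193-fold higher because neither passed the background limit on the Lin- arrays (adjusted p of 0.000311 and 6.51e-05 in limma).

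Of 10 regulators of NRF2 2 were higher and 0 lower, beside 28.8% and 26.5% of all genes, with a median of -0.11. Nfe2l2, which encodes NRF2 itself, had a log2 change of -0.18 (adjusted p of 0.674 in limma), Keap1 of -0.05 and Bach1, a repressor of Hmox1, of -0.21, none called. The 2 called higher were Sqstm1 (2.82), an adaptor that binds KEAP1, and Nfe2l1 (1.12), a factor related to NRF2. Hmox1 was accompanied in the list of heme breakdown by Blvrb (2.15) and Hmox2 (0.97), which were called, and by Blvra, which was not. That count of 2 of 4 fell to 0 with normexp and with quantile normalization. Of all genes 56.9% and 55.1% were called with these, against 55.3% in the main fit. The counts of heme breakdown and of NRF2 regulators also fell with some single arrays left out, where the share of all genes called fell too. Of 2 metallothioneins Mt1 was called (2.88). The source of superoxide in phagocytes moved the other way, since 6 of 6 genes of the phagocyte NADPH oxidase were lower, with a median of -4.79. Among them were Rac2 (-7.10), Ncf4 (-5.38) and Cyba (-4.25), which encodes a membrane subunit of the oxidase. The neutrophil markers fell along with them, from a summed level of 1168 and 590 in Lin- BM cells to 3.06 and 2.39 at 1 month, and their part in the result was not tested.

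**Figure D3:**
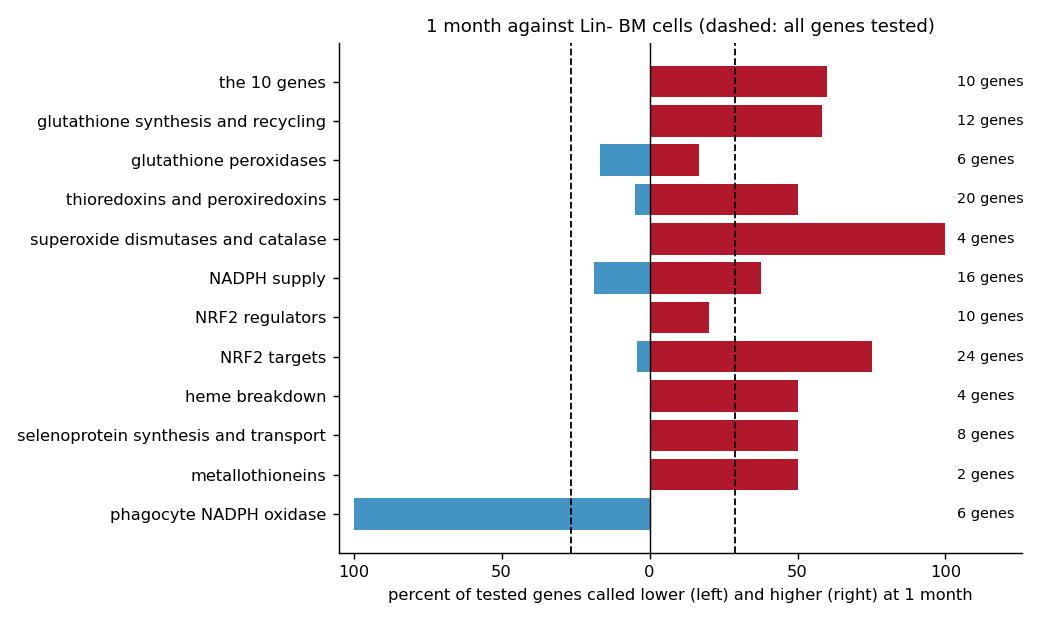
Percent of the tested genes of each list that were called higher (right, red) or lower (left, blue) at 1 month against Lin- BM cells by limma, with the number of tested genes at the right. The dashed lines mark all genes tested, 28.8% higher and 26.5% lower, and the bars of the superoxide dismutases and catalase and of the phagocyte NADPH oxidase reach their full length in opposite directions.

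Between 5-month and primary hepatocytes the changes of the 10 genes ran from -0.82 (Gclm) to 1.86 (Nnt) on their brightest probes. None of the 10 was called in limma between 5-month and primary hepatocytes, where 110 of 19934 genes were called (0.552%, 0.366% higher and 0.186% lower). At an unadjusted p under 0.05 in limma there were 3, Nnt, Gclm and Nqo1, against 2817 of all 19934 genes. The test named in the methods, without adjustment, called 1 of the 10, Nnt. No share of all genes called was taken for that test, so this count cannot be set against a background. The median log2 change of the 10 genes was 0.16, beside 0.04 for all genes.

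Nnt was the member that differed most. Its brightest probe on that slide, which begins with gtattaagtgcgc, gave log2 signals of 3.84 and 4.07 in primary hepatocytes and 5.71 and 5.91 at 5 months. The groups did not overlap, the arrays of each group lay close together, and the log2 change was 1.86 (SE 0.22, n = 2 per group, 95% interval 1.26 to 2.45), which is 3.62-fold. The unadjusted p was 0.000727 and the adjusted p 0.0757 in limma, past the limit. Of all 19934 genes 356 had a larger rise (1.79%) and 190 a smaller unadjusted p (0.953%), and 80 of these 190 were not called either. Nnt was called with normexp (1.84, adjusted p of 0.0263 in limma), without primary replicate 2 (1.74, adjusted p of 0.0224) and without primary replicate 4 (1.97, adjusted p of 0.0155), and not without 5-month replicate 1 (1.95) or replicate 3 (1.76). The count over all genes moved likewise, since 7.69% were called without primary replicate 2, 8.15% without primary replicate 4 and 0 genes without either 5-month array.

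The other Nnt probes of that slide lay near the background limit. Both passed the filter only through the 5-month arrays, so their values are description and lend no support to the brightest probe. The second probe, which begins with gagacatttttgg, gave -4.46 and -4.30 in primary hepatocytes, neither array well above background, and -3.63 and -3.22 at 5 months, both well above it. The dimmest, which begins with ggagggaccaaca, gave -3.67 and -5.89 in primary hepatocytes, with replicate 4 not well above background, and -3.02 and -3.69 at 5 months. The second probe did not overlap between the groups and the dimmest did. The bound on the fold of the second probe at 5 months was 1.81, a value without a measure of error. The dimmest had a log2 change of 1.43. Neither was called (adjusted p of 0.232 and 0.485 in limma with every probe tested). The summed level of the Kupffer cell markers was 24.0 and 50.6 in primary hepatocytes and 102 and 97.8 at 5 months. On all 4 arrays 8 of 8 of these markers were well above background, and 0 of 8 were called. The hepatocyte markers had sums of 6566 to 7518 in primary hepatocytes and 7406 to 8389 at 5 months. The part of other cells, and that of the Nnt deletion known in C57BL/6J, in the Nnt values was not tested.

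**Figure D4:**
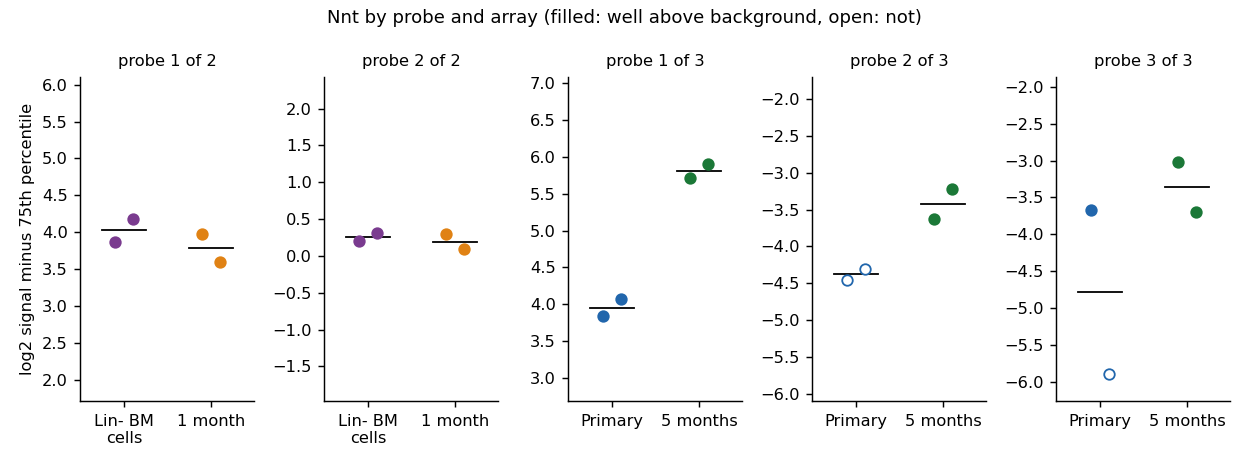
Normalized log2 signal of the 5 Nnt probes on each array, the 2 probes of the Lin- and 1-month slide on the left and the 3 of the primary and 5-month slide on the right, in order of brightness. Points are arrays, filled where the spot was well above background and open where it was not, and lines are means of 2 arrays; only the first probe of the primary and 5-month slide shows groups far apart with all 4 arrays well above background.

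Gclm and Nqo1 were the other members with an unadjusted p under 0.05, in opposite directions. Gclm had log2 signals of 2.80 and 2.61 in primary hepatocytes and 2.17 and 1.59 at 5 months, and Nqo1 had 2.39 and 2.05 against 2.92 and 2.78. Neither gene overlapped between the groups. The log2 change was -0.82 for Gclm (95% interval -1.58 to -0.06, adjusted p of 0.332 in limma) and 0.63 for Nqo1 (0.01 to 1.25, adjusted p of 0.348). Gclc, the partner subunit of Gclm, had 7.05 and 6.10 in primary hepatocytes and 6.86 and 6.82 at 5 months. These overlapped, and the change was 0.26 with an interval of -0.75 to 1.28.

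Gpx1 and Sod2 were the members with the least room for a difference. The interval of the log2 change of Gpx1 was -0.58 to 0.54 around -0.02, and that of Sod2 was -0.80 to 0.36 around -0.22. Txnrd1 had 5.88 and 5.64 in primary hepatocytes and 6.10 and 6.20 at 5 months, which did not overlap, with a change of 0.39 (-0.18 to 0.96, adjusted p of 0.5 in limma). Srxn1 had 5.63 and 4.91 against 5.62 and 5.57, a change of 0.33 (-0.51 to 1.17). Srxn1 overlapped between the groups, its primary arrays being apart. Hmox1 gave a change of 0.05 (-0.78 to 0.87) with its brighter and 0.27 with its other probe.

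Cat was the member whose probes disagreed. Its brighter probe, at chr2:103294487-103294546 in mm9, gave log2 signals of 6.82 and 6.18 in primary hepatocytes and 6.52 and 6.36 at 5 months, which overlapped, and the change was -0.06 (-0.85 to 0.73, adjusted p of 0.948 in limma). The other probe, spread over chr2:103297086-103300428, gave 6.01 and 5.21 against 4.07 and 4.24. These groups did not overlap, all 4 arrays were well above background, and the change was -1.45 (SE 0.34, unadjusted p of 0.00972, adjusted p of 0.192 in limma with every probe tested). Neither probe was called. The level of Cat at 5 months was therefore measured as like that in primary hepatocytes with 1 probe and lower with the other.

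The pathway lists gave 0 called genes out of 103 different genes tested between 5-month and primary hepatocytes, beside 0.552% of all 19934 genes. At an unadjusted p under 0.05 in limma there were 12 of the 103, beside 2817 of the 19934. Of these 12, 5 lie in the list of NADPH supply, whose median log2 change was 0.30: Nnt, Me1 (1.27, unadjusted p of 0.00231, adjusted p of 0.118), G6pdx (1.47), Mthfd2 (1.31) and H6pd. The NRF2 targets had a median of 0.39, with 6 genes at an unadjusted p under 0.05. Cbr3, a carbonyl reductase, had the largest value among them, 2.35 (adjusted p of 0.0667 in limma). These genes were named after their values were seen. Without primary replicate 2, where 7.69% of all genes were called, 5 genes of NADPH supply and 5 NRF2 targets were called. Without primary replicate 4 (8.15% of all genes) they were 2 and 3, and with normexp (0.793%) 2 and 2. The 6 genes of the phagocyte NADPH oxidase had a median of 1.02 with 0 called, beside neutrophil markers with summed levels of 13.3 and 24.95 in primary hepatocytes and 81.6 and 15.7 at 5 months, whose part was not tested. Without primary replicate 4, 3 of these 6 genes were called, beside 8.15% of all genes.

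For 7 of the 10 genes a probe of identical sequence lay on both designs, which allowed all 4 groups to be set side by side among 9220 genes. Nnt, Srxn1 and Cat had none. At 5 months against Lin- BM cells 6 of the 7 were higher, beside 29.3% of all genes (37.8% lower, 67.1% in all), and in primary hepatocytes against Lin- BM cells 5 of the 7, beside 29.3% as well (38% lower, 67.3% in all). At 1 month against primary hepatocytes 1 of the 7 was higher, beside 11.6% of all genes (5.04% lower, 16.6% in all). At 5 months against 1 month 0 of the 7 were called in limma, beside 16.8% of all genes (5.73% higher, 11.1% lower). In that comparison 0 of the 7 had an unadjusted p under 0.05 in limma, beside 3205 of all 9220 genes. These comparisons share arrays with each other, so their values are given side by side only. Values below are on the scale of the shared probes and cannot be set beside those above.

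**Figure D5:**
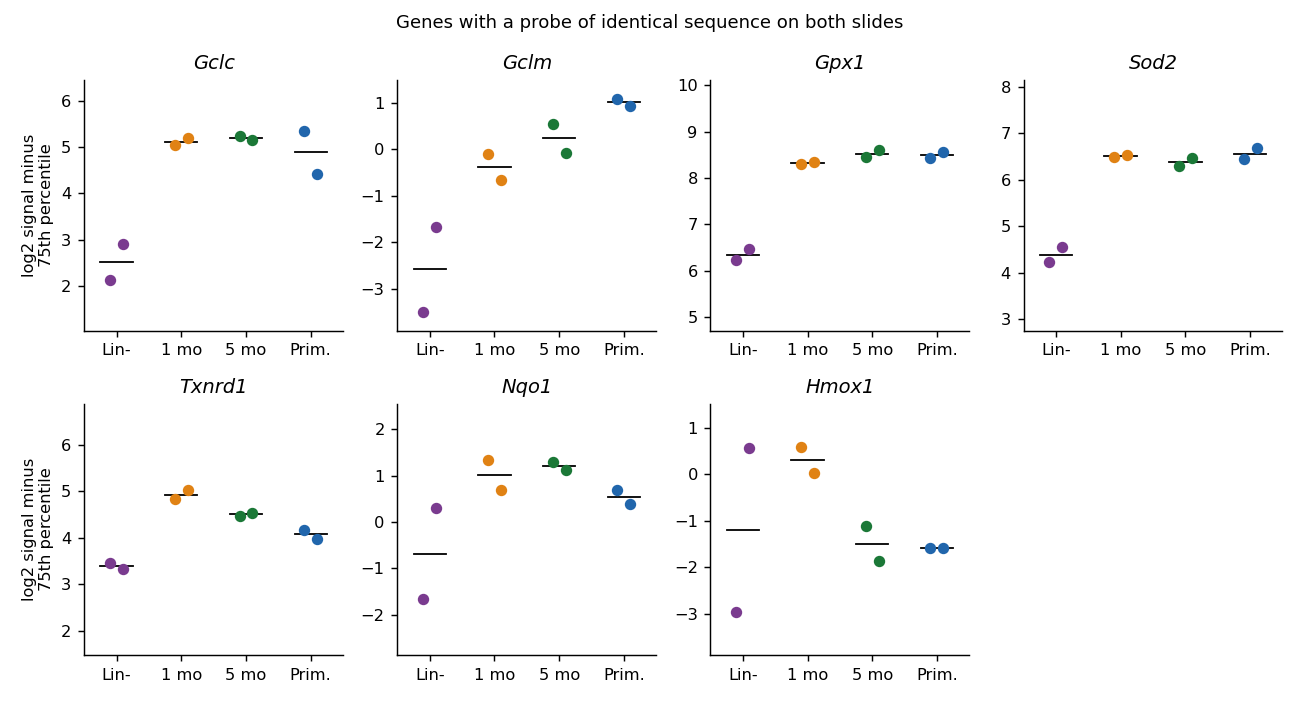
Normalized log2 signal of the 7 genes with a probe of identical sequence on both slides, in Lin- BM cells (Lin-), hepatocytes 1 month (1 mo) and 5 months (5 mo) after transplantation and primary hepatocytes (Prim.). Points are arrays and lines are means of 2 arrays; Gclc, Gpx1 and Sod2 show 3 hepatocyte groups at about 1 level above Lin- BM cells, while the means of Gclm, Txnrd1 and Hmox1 lie farther apart among the hepatocyte groups, where only Txnrd1 at 1 month against primary hepatocytes was called.

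Gclc, Gpx1 and Sod2 showed the same order of groups, with Lin- BM cells lowest and the 3 hepatocyte groups together. Gclc had log2 signals of 2.15 and 2.92 in Lin- BM cells, 5.03 and 5.19 at 1 month, 5.23 and 5.15 at 5 months and 5.35 and 4.42 in primary hepatocytes. The primary arrays spanned both BM-derived groups. Gclc was higher than in Lin- BM cells by 2.66 at 5 months and by 2.35 in primary hepatocytes (adjusted p of 0.00104 and 0.00177 in limma), and the 3 hepatocyte groups were not called against each other. Gpx1 had 6.24 and 6.47 in Lin- BM cells, 8.30 and 8.34 at 1 month, 8.45 and 8.59 at 5 months and 8.43 and 8.56 in primary hepatocytes, with log2 changes against Lin- BM cells of 2.17 and 2.15 (adjusted p of 0.000176 and 0.000173). The 6 hepatocyte arrays of Gpx1 lay close together. Sod2 had 4.23 and 4.54 in Lin- BM cells and 6.30 to 6.68 on the 6 hepatocyte arrays, with changes of 1.997 at 5 months and 2.17 in primary hepatocytes (adjusted p of 0.000345 and 0.000222). With quantile normalization these changes were smaller, 0.92 and 1.11 for Gpx1 and 0.88 and 1.14 for Sod2, all called.

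Gclm had its lowest hepatocyte mean at 1 month and its highest in primary hepatocytes, with no called difference among them. It had log2 signals of -3.50 and -1.67 in Lin- BM cells, -0.10 and -0.66 at 1 month, 0.55 and -0.08 at 5 months and 1.09 and 0.94 in primary hepatocytes. No neighbouring groups overlapped, but the step from 1 month to 5 months was 0.61 (95% interval -0.80 to 2.02) and neither that nor the difference of 1 month from primary hepatocytes (-1.39, adjusted p of 0.159 in limma) was called. The values against Lin- BM cells were 2.82 at 5 months and 3.603 in primary hepatocytes, both called (adjusted p of 0.00518 and 0.0017). They were 1.91 and 2.69 without Lin- BM cell replicate 3, 3.73 and 4.51 without replicate 4, and 2.13 and 2.84 with normexp, all called.

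Txnrd1 was highest at 1 month. Its log2 signals were 3.45 and 3.34 in Lin- BM cells, 4.84 and 5.02 at 1 month, 4.48 and 4.53 at 5 months and 4.17 and 3.97 in primary hepatocytes. None of the 4 groups overlapped. The 1-month hepatocytes were above primary hepatocytes by 0.86 (SE 0.21, adjusted p of 0.04 in limma), the only call among the 7 genes in that comparison. The call was lost with quantile normalization (0.85), with the 75th percentile of all probes (0.59), with the values processed by the authors (0.58) and without any single array of the 2 groups (0.76 to 0.96). Against Lin- BM cells the changes were 1.11 at 5 months and 0.68 in primary hepatocytes (adjusted p of 0.00346 and 0.0261), and with quantile normalization they were 0.40 and 0.06, neither called. The latter was also not called without Lin- BM cell replicate 4 (0.62) or without primary replicate 2 (0.58).

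Nqo1 and Hmox1 were again set by the 2 Lin- BM cell arrays. Nqo1 had log2 signals of -1.66 and 0.29 in Lin- BM cells, 1.33 and 0.68 at 1 month, 1.29 and 1.11 at 5 months and 0.68 and 0.38 in primary hepatocytes. All 6 hepatocyte arrays lay above both Lin- BM cell arrays, primary replicate 4 by little. The change at 5 months was 1.89 (adjusted p of 0.03 in limma), lost without Lin- BM cell replicate 3 (0.91), 5-month replicate 1 (1.80) or 5-month replicate 3 (1.98) and 2.86 without Lin- BM cell replicate 4, and that in primary hepatocytes was 1.22 (adjusted p of 0.118), called without Lin- BM cell replicate 4 (2.19) and 0.24 without replicate 3. Hmox1 had -2.97 and 0.56 in Lin- BM cells, 0.60 and 0.02 at 1 month, -1.12 and -1.86 at 5 months and -1.57 and -1.59 in primary hepatocytes. The marrow arrays spanned all 4 arrays of the 5-month and primary hepatocytes, and the 1-month arrays lay above those 4.

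The differences of Hmox1 against Lin- BM cells were -0.29 at 5 months and -0.38 in primary hepatocytes, with adjusted p-values of 0.818 and 0.761 in limma. Their direction depended on which marrow array was left out. Without Lin- BM cell replicate 3 they were -2.06 and -2.14, and without replicate 4 they were 1.48 and 1.39, all 4 called. Between the hepatocyte groups Hmox1 was lower at 5 months than at 1 month by a log2 value of 1.80 in size and the 1-month level was above that of primary hepatocytes by 1.89. Neither was called, at adjusted p-values of 0.259 and 0.251 in limma, with a shared spread that includes the marrow arrays and 95% intervals of -4.27 to 0.66 and -0.57 to 4.35. These comparisons also lie across slides.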

How the data were processed

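The arrays are 8 single-colour Agilent hybridizations on 2 designs (61307 and 55681 probes without controls). The authors extracted them with Agilent Feature Extraction 11.5.1.1, and the deposited intensity used here is the processed signal, already background-subtracted. The deposited values processed by the authors are log2 signals shifted by the 75th percentile of each array, and served as an alternative. The methods name that shift and a limit of 0.6 on the log2 change.

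Control spots and outlier spots (6 to 152 per array) were left out, log2 was taken and the 75th percentile of each array subtracted, over all probes within a slide and over the 13991 probes of identical sequence across slides. A probe had to be well above background on both arrays of some group, and the brightest such probe stood for its gene. The limma package 3.58.1 (R 4.3.3) was used on the 4 arrays of a slide or on all 8 arrays, and p-values were adjusted after Benjamini and Hochberg across the genes tested. The sources do not say how separate the 2 pools of a group are, so p-values measure only the spread between these arrays, which may be technical. The number of arrays limits the precision. Columns of per-array values without a sample numbered 0. Tables and plots were made with Python 3.11.15, pandas 2.3.3, numpy 2.4.6 and matplotlib 3.10.9. The fits were tested on simulated data.

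The members and lists were chosen with earlier results of these data known. The text names the 10 members and, per list and comparison within a slide, up to 4 called genes with the largest change, with others added after their values were seen. The values of 1 gene that the rule names are not reported here. Genes most like Nnt were not sought, since Nnt has no shared probe. Where no array of a group passed the background limit the fold is a bound, from the lowest signal well above background or the probe's own. Alternatives were normexp (offset 50), quantile normalization, the authors' values, no filter, probe means, every probe, the methods' t-test, the percentile set and each array left out. A genome of build mm9 was not used here.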

Additional observations from a re-analysis of the deposited data

How the results depend on the processing

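The 6 genes called at 1 month against Lin- BM cells were called under normexp, quantile normalization, the authors' values, no filter, probe means and each array left out. Counts of called members moved as follows. The methods' t-test after Benjamini-Hochberg adjustment called 2 members at 1 month against Lin- BM cells, 3 at 5 months against Lin- BM cells, 2 in primary hepatocytes against Lin- BM cells and 0 at 1 month against primary hepatocytes, and without adjustment 3 in each of the last 2 and 1 at 5 months against primary hepatocytes. No share of all genes called was taken for the t-test. Normexp gave 1 at 5 months against primary hepatocytes (0.793% of all genes, against 0.552% in the main fit). At 1 month against primary hepatocytes it gave 2 (26.3% of all genes, against 16.6%). For the latter comparison quantile normalization (13.8%), the authors' values (16.2%) and the percentile of all probes (16.2%) gave 0. With an array left out 1 group holds a single array, and the share of all genes called moved too. Member counts of those fits are therefore not set out here. Small changes turned their sign. Gpx1 at 5 months against primary was 0.023 in the fit of shared probes added after seeing the data. At 1 month against primary, Gclc was -0.0492 with the authors' values and -0.0412 with the percentile of all probes, and Sod2 0.0046 with quantile normalization. At 5 months against 1 month, Gpx1 was -0.0137 with quantile normalization and Sod2 0.087 with normexp, 0.116 with the authors' values and 0.106 with the percentile of all probes. With single arrays left out, Hmox1 ran from -0.35 to 3.33 at 1 month, from -2.06 to 1.48 at 5 months and from -2.14 to 1.39 in primary hepatocytes against Lin- BM cells. At 5 months against primary, Gclc ran from -0.22 to 0.74, Hmox1 from -0.30 to 0.40, Srxn1 from -0.0324 to 0.69, Gpx1 from -0.11 to 0.0753 and Cat from -0.38 to 0.26. At 1 month against primary, Gclc ran from -0.23 to 0.69 and Sod2 from -0.17 to 0.0597, and at 5 months against 1 month Gclc from -0.0032 to 0.16 and Nqo1 from -0.13 to 0.52. The cause of these moves was not tested. Dim signals limit the 2 dimmer Nnt probes of the primary and 5-month slide and the Lin- BM cell values of Gclm. No paired analysis was possible, since the labels name no pairs of arrays. The sources do not say that equal replicate numbers mark shared animals or batches.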
